A study of Brassica napus with 6 samples.

Results

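WRKY, NAC and MYB proteins are plant transcription factors. Here 7 genes of these families were examined in roots of oilseed rape exposed to cadmium with or without glutathione. They were taken by name: a probe set counted if the array annotation gave it a single gene symbol that starts, after an optional AT or A, with WRKY, NAC or MYB and a number, and the brightest probe set stood for a gene with several. This gave 6 WRKY genes (WRKY6, WRKY20, WRKY22, WRKY42, WRKY47 and WRKY53), 1 NAC gene (NAC014) and 0 MYB genes among 13513 probe sets with 1 gene symbol and 22746 probe sets in all. The annotation gave no symbol for 8730 probe sets and several for 503, and family members among those could not be found by name. The counts are thus not the numbers of WRKY, NAC and MYB genes on the array. Each of the 7 genes had 1 probe set. The values therefore describe these 6 WRKY genes and NAC014 and say nothing of the MYB family. WRKY6 had lower values on every array with GSH, with a mean log2 difference of -0.39 that did not pass the adjusted test; WRKY22 was dim, and the other 5 genes held 1 value throughout. MYBC1, whose symbol has no number after MYB, fell outside the choice, and its probe set held a single value of 6.06 on all 6 arrays.

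Roots of Brassica napus cultivar Nourin No.16 were compared after 2 days in hydroponic solution. The 3 control samples had 10 µM cadmium chloride alone, and the other 3 samples had the same cadmium chloride together with reduced glutathione (GSH), a thiol peptide from which plants make cadmium-binding phytochelatins. The labels state 100 mM GSH and describe the samples as biological replicates, they record an age of 4 weeks beside a protocol that used seedlings of 2 to 3 weeks, and they put 6 plants in a container without saying how many plants made up a sample. All groups received cadmium, and roots without it were not analysed here. RNA was read on the Arabidopsis ATH1 array, so each name is that of the Arabidopsis gene whose probes bound oilseed rape RNA, and copies of a gene in oilseed rape were not separated.

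WRKY proteins bind short W-box motifs in promoters and are best known from defence, senescence and nutrient responses, and several are switched on through mitogen-activated protein kinase cascades. NAC proteins are a plant-specific family that acts in senescence, stress responses and the building of vessels and fibres. MYB factors steer, among other things, phenylpropanoid and glucosinolate synthesis and the patterning of root hairs. In Arabidopsis, WRKY6 acts in senescence, pathogen defence and phosphate supply, where it represses the phosphate exporter gene PHO1, and WRKY42 represses the same gene.

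Signal is given in the deposited table as log2 values, and most probe sets read the same on every array. Over all tested probe sets 10.7% ranged by more than 0.01 on the log2 scale, the limit used here to call a probe set varying. Of the 7 genes, 2 varied (28.6%), WRKY6 with a range of 0.657 and WRKY22 with a range of 0.219. The next gene, WRKY47, lay far below the limit with a range of 4.07e-06, so no member was near it. With 7 genes, the share that varied is a description and was not tested.

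**Figure D1:**
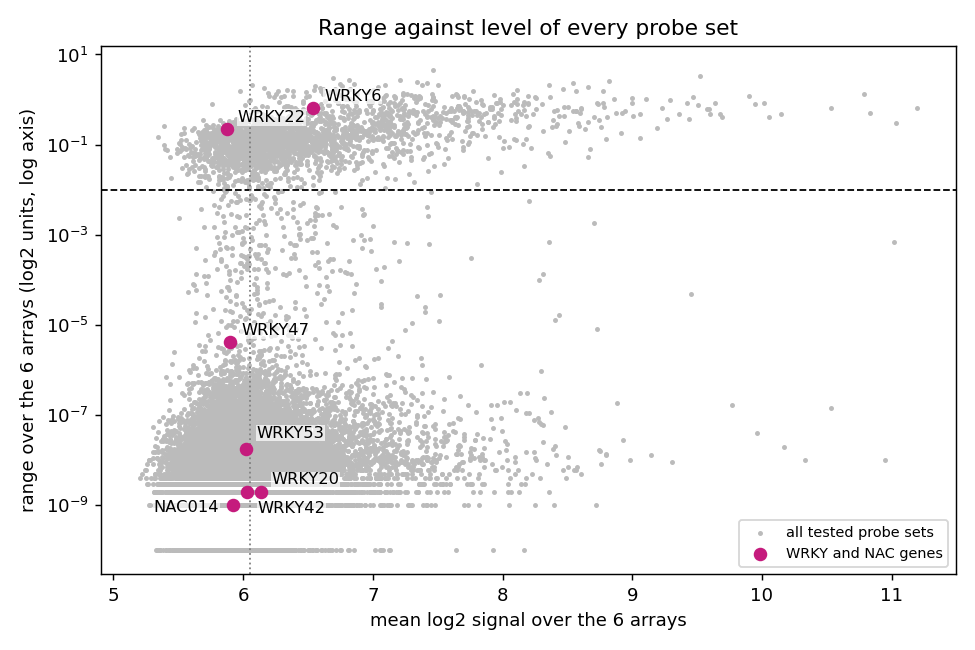
Range over the 6 arrays (log2 units, on a log axis) against mean log2 signal for every tested probe set, with ranges of 0 drawn at the bottom. The dashed line marks the limit of 0.01 and the dotted line the highest Bacillus control set at 6.05. WRKY6 and WRKY22 lie above the dashed line, and the other 5 named genes lie far under it.

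WRKY6 (probe set 264746_at, Entrez gene 842527) had lower values with GSH. Its log2 signal was 6.95, 6.67 and 6.58 on the 3 arrays with cadmium alone and 6.29, 6.43 and 6.32 on the 3 arrays with cadmium and GSH. Every array with GSH lay below every array with cadmium alone, and the closest arrays of the groups were 0.15 apart. The group means were 6.73 ± 0.19 (SD, n = 3) and 6.35 ± 0.07 (SD, n = 3), so the spread was wider with cadmium alone, where replicate 1 stood highest. The log2 difference, GSH minus cadmium alone, was -0.39 (SE 0.10) with a 95% interval from -0.65 to -0.12. This difference corresponds to a signal 1.31-fold higher with cadmium alone. All 6 values lay above the brightest Bacillus control set at 6.05, and the GSH arrays lay nearest to it. The fold is one of array signal, and its relation to transcript level was not tested. In limma, fitted on all 2428 varying probe sets, the unadjusted p was 0.0124 and the Benjamini-Hochberg adjusted p was 0.262, so WRKY6 did not pass the adjusted threshold of 0.05. The exact permutation test on its 6 values gave a two-sided p of 0.1, the smallest that 3 arrays against 3 allow.

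The position of WRKY6 among all varying probe sets shows how common such a difference was. By unadjusted p it ranked 114 of 2428, and in order of the difference, from the most negative up, it ranked 87. At an unadjusted p under 0.05, 12.9% of the varying probe sets were called, 6.67% as lower and 6.18% as higher with GSH. Groups that did not overlap were found in 18.7% of varying probe sets, and in 9.84% with GSH lower. After adjustment 0 of the 2428 passed in limma (0%), and the smallest adjusted p was 0.0791. The median log2 difference over all varying probe sets was -0.0007 and the median absolute difference was 0.035. WRKY6 is thus 1 of 2 varying members with an unadjusted p under 0.05 and non-overlapping groups, a count too small to set against those shares.

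**Figure D2:**
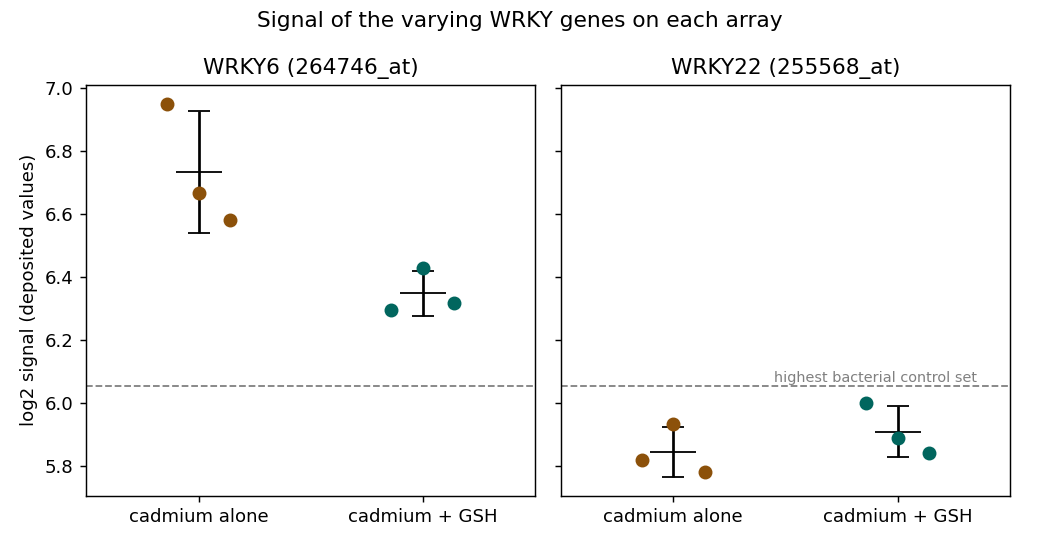
Log2 signal of WRKY6 (left) and WRKY22 (right) on each array, by treatment. Points are arrays, the horizontal bars are group means and the whiskers 1 SD (n = 3). The dashed line, labelled as the highest bacterial control set, is the highest Bacillus control set at 6.05. For WRKY6 the GSH arrays (6.29 to 6.43) lie under the cadmium arrays (6.58 to 6.95), and for WRKY22 the groups overlap under the dashed line.

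Measures of the arrays as a whole are given beside WRKY6. On the first principal component of the varying probe sets, which held 57.1% of their variance, cadmium replicates 1, 2 and 3 stood at -8.54, -3.87 and -1.97 and the GSH replicates at 7.03, 3.85 and 3.50. WRKY6 was highest on the array farthest out, cadmium replicate 1, and lowest on the array farthest out at the other end, GSH replicate 1. It followed the order on this component over the cadmium arrays but not over the GSH arrays. Without cadmium replicate 1 the WRKY6 difference was -0.28 with an unadjusted limma p of 0.00496 and an adjusted p of 0.141. The signal difference between the 3' and 5' ends of actin in one pair of control sets, a measure of RNA and labelling quality, averaged 1.24 ± 0.05 (SD, n = 3) under cadmium alone, against 1.45 ± 0.07 (SD, n = 3) under cadmium and GSH. In this pair the groups did not overlap, with 1.19 to 1.29 under cadmium alone and 1.37 to 1.51 under cadmium and GSH. The actin 3' set ranged by 0.369 and its 5' set by 0.0471. In the second pair of actin sets, whose 3' set was constant, the groups overlapped, with means of 1.15 ± 0.14 (SD, n = 3) and 1.17 ± 0.06 (SD, n = 3). The part of labelling in the WRKY6 difference was not tested. In whole roots, fewer cells that express WRKY6 and less WRKY6 RNA per cell cannot be told apart.

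WRKY22 (probe set 255568_at, Entrez gene 827896), which in Arabidopsis acts in the response to bacterial flagellin downstream of a kinase cascade, was dim. Its log2 signal was 5.82, 5.93 and 5.78 with cadmium alone and 6.00, 5.89 and 5.84 with GSH. The groups overlapped, and all 6 values lay under 6.05, the mean of the brightest of 27 control probe sets for Bacillus genes, which served as a reference for background. The group means were 5.84 ± 0.08 (SD, n = 3) and 5.91 ± 0.08 (SD, n = 3). The limma unadjusted p was 0.314 and the adjusted p 0.716. Since both groups lay under the brightest control set, no fold is given, and the values do not show how WRKY22 transcripts differed.

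The other 5 genes held the same value on all arrays. WRKY20 (probe set 253983_at), of the subgroup with a duplicated WRKY domain, read 6.14 and was the single constant member above 6.05. WRKY42 (255337_at) read 6.03 and WRKY53 (254231_at), a regulator of leaf senescence in Arabidopsis, read 6.02. WRKY47 (255596_at) read 5.90 and NAC014 (261616_at) 5.92. The ranges of these 5 genes ran from 1e-09 to 4.07e-06, and no replicate spread can be taken from values of this kind. The deposited values can show neither a response to GSH nor the lack of one for these genes, WRKY42 with its role shared with WRKY6 among them.

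Signal over background went with whether a probe set varied. Of the 9686 probe sets above 6.05, 17.8% varied, and of the 13060 not above it, 5.41% varied. Among the 7 genes, 1 of the 2 above 6.05 varied (WRKY6) and 1 of the 5 not above it (WRKY22). WRKY6 was brighter than 89.0% of all tested probe sets and WRKY20 brighter than 67.3%, while NAC014 and WRKY22 lay at 39.1% and 32.1%. These ranks order probe sets on an array made for another species and do not order the genes by transcript level.

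Genes that work with these families were looked up in 5 lists of 120 names: kinases and partners of WRKY proteins, targets of WRKY factors, genes tied to NAC factors, MYB partners, and MYB targets in phenylpropanoid and glucosinolate synthesis. Of these, 10 were matched to a probe set with 1 gene symbol and 2 varied, and 0 had an unadjusted p under 0.05 or passed the adjustment in limma. Over all tested probe sets 10.7% varied, and 12.9% of the varying ones had an unadjusted limma p under 0.05. With 2 varying genes, a count of 0 does not show that the listed genes lacked a response. Among WRKY partners BIK1, a kinase of immune receptors, was matched and constant at 6.13. SAG29, a senescence-associated sugar transporter gene, was constant at 6.22 in the NAC list. The MYB partners MYC3, MYC4 and ATMYC1 were constant, at 6.22, 5.83 and 6.02. None of the 16 WRKY target names was matched, so the targets of WRKY6, PHO1 included, were not analysed here. Of the MYB target names, CHI varied. Its mean under cadmium alone was 6.26 ± 0.11 (SD, n = 3). Under cadmium and GSH it was 6.27 ± 0.03 (SD, n = 3). CHI was listed as the chalcone isomerase of flavonoid synthesis but was matched by its symbol alone. Whether its probe set reads that gene, and so a MYB target, was not tested. CCR2, a cinnamoyl-CoA reductase of the lignin route, also varied, and its means were 6.48 ± 0.02 (SD, n = 3) and 6.50 ± 0.01 (SD, n = 3) with an unadjusted limma p of 0.423.

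Other transcription factor families, searched by name in 11 groups, gave 68 genes in 6 of the groups, and 5 of them varied. By unadjusted p under 0.05 in limma 2 were lower with GSH and 0 higher, and 0 passed adjustment. Over all features 10.7% of probe sets varied, and 6.67% of the varying ones were called as lower. AGL79, a MADS-box factor, averaged 6.47 ± 0.03 (SD, n = 3) under cadmium alone against 6.33 ± 0.06 (SD, n = 3) under cadmium and GSH. Its log2 difference was -0.15 (SE 0.04) with an adjusted limma p of 0.248. BZIP53, a factor that in Arabidopsis takes part in the response to low energy supply, differed by -0.10 (SE 0.04), with an adjusted limma p of 0.362. The groups did not overlap for either gene, which held with GSH lower for 9.84% of all varying probe sets. The other 3 varying genes had overlapping groups and log2 differences of 0.03 (BZIP60), 0.02 (AGL96) and -0.04 (BZIP61). WRKY6 differed by more on the log2 scale, and the contrast between it and these genes was not tested.

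Marker genes of root and green tissue were looked up. Signal on this array does not order genes by transcript level, so their levels cannot check the root label. Of 18 root markers, 3 were matched and all lay above 6.05: the endoplasmic reticulum body protein PYK10 at 7.06 and the root hair expansins EXPA18 (6.64 with cadmium alone, 6.67 with GSH) and EXPA7 at 6.50. Of 15 markers of green tissue, 2 were matched, and LHCB4.1 at 6.07 and RCA at 6.04 lay close to the brightest Bacillus control set. LHCB4.1 thus also lay above 6.05. PYK10, EXPA7, LHCB4.1 and RCA were constant, so their part in the WRKY6 difference was not tested; EXPA18 varied without a difference between groups that passed limma (unadjusted p 0.637).

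The size of the WRKY6 difference was set against other scalings and against leaving out each array. Of 16 alternatives, 8 cannot change the value, and in the other 8 the difference stayed negative, between -0.46 and -0.28. Averaging a gene's probe sets, among those that cannot change the value, cannot change the test either, because each gene had a single probe set. Over all 16 the unadjusted limma or two-sample p ran from 0.00496 to 0.0422 and the adjusted p from 0.141 to 0.789, all above the threshold of 0.05.

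**Figure D3:**
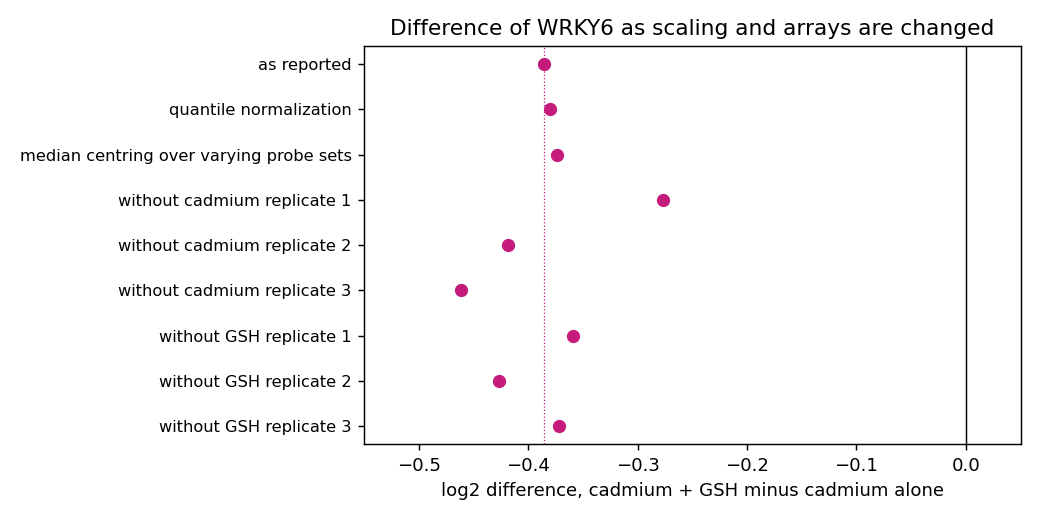
Log2 difference of WRKY6, GSH minus cadmium alone (horizontal axis), as reported, after quantile normalisation or median centring, and with each array left out. Settings that cannot change the value are not drawn. The values lie between -0.46 without cadmium replicate 3 and -0.28 without cadmium replicate 1, and the black line marks 0.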

How the data were processed

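Total RNA from roots was labelled with biotin and hybridised to 1 array per sample, per the labels' protocols. The authors deposited log2 values, 1 per probe set and array; the log base was taken from their range (5.20 to 11.40), and the submitters' processing notes name R 2.7.2. Of background correction, normalisation, probe-set summary and scan batches the sources used here say nothing, and nothing was normalised further. Of 22810 probe sets, 64 controls were kept apart. The annotation gave 1 symbol for 13513 of the other 22746, several for 503 and none for 8730.

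The lmFit and eBayes functions of limma 3.58.1 (R 4.3.3) were run on the 2428 probe sets ranging over 0.01, GSH minus cadmium alone, with Benjamini-Hochberg adjustment over all of them, and the script was tested on simulated data. The members and lists were chosen with earlier results of these data known. The planned background reference included 18 spiked-in sets of bioB, bioC, bioD and cre with means from 7.04 to 12.51; these were left out after their values were seen, which leaves 27 Bacillus sets (5.44 to 6.05). Every varying member is named with its values, and constant members with their level. Nothing says whether replicates came from separate containers, so p-values measure the spread between these samples. The number of arrays limits the precision.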

Additional observations from a re-analysis of the deposited data

How the results depend on the processing

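Alternatives were quantile normalisation, median centring, range limits of 0.1 and 0.0001, leaving out dim probe sets, robust eBayes with an intensity trend, a block for the replicate number, all tested probe sets, averaging a gene's probe sets, a plain two-sample test and leaving out each array. The count of varying members past the adjusted threshold was 0 and past an unadjusted p of 0.05 was 1, WRKY6, in every one. The count of genes with non-overlapping groups was 1 to 2 when 1 array was left out; it was 2 without cadmium replicate 2, where WRKY22 was added. The median log2 difference of the 2 varying members, -0.16, became -0.39 with dim probe sets left out, because WRKY22 then leaves the fit and WRKY6 alone remains; leaving out 1 array gave -0.21 to -0.11. With all 22746 probe sets in the fit the adjusted p of WRKY6 was 0.789.

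Between samples with the same replicate number, deviations from the group means correlated at -0.11, -0.21 and 0.13 over varying probe sets. Between samples with different numbers the correlations ran from -0.23 to 0.32. With 3 samples per group these values cannot show whether the numbers pair the samples. With the replicate block WRKY6 had an unadjusted p of 0.0306 and an adjusted p of 0.371 in limma, and 301 varying probe sets against 312 had an unadjusted p under 0.05. Over the 2428 varying probe sets the adjusted count of 0 became 3 with quantile normalisation and 13 without cadmium replicate 3. Among probe sets with a range over 0.1 it was 5, and among all 22746 tested it was 42. The fit on all tested probe sets includes the constant ones, which hold no information on the treatment. Its 42 are therefore not a count of varying probe sets. Signal near the control sets limits WRKY22, and constant values limit the other 5 genes.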
